A study of Mus musculus with 34 samples.

Results

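The mammalian pathway that makes cholesterol, takes it up and senses its level was followed through 29 mouse genes, out of 24475 genes in the deposited table. The genes were picked by name for their place in the pathway and matched by Entrez Gene ID, with earlier results of these data known. They fall into 8 genes of the mevalonate steps (Acat2, Hmgcs1, Mvk, Pmvk, Mvd, Idi1, Fdps and Ggps1). Next come 3 genes that make squalene and turn it into lanosterol (Fdft1, Sqle and Lss). Then 9 genes lead from lanosterol to cholesterol (Cyp51, Tm7sf2, Lbr, Msmo1, Nsdhl, Hsd17b7, Ebp, Sc5d and Dhcr7). Another 4 genes act in sterol transport and uptake (Stard4, Npc1, Npc2 and Mylip), and 5 genes form the sterol sensor (Srebf1, Srebf2, Scap, Insig1 and Insig2). All 29 passed the filter on low counts, in the libraries from mice and in the cultured ones.

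Polyadenylated RNA of sorted mouse cells was sequenced in 34 libraries. C57/Bl6 mice carried MC38, a colon adenocarcinoma line, or LLC, a Lewis lung carcinoma line. From the tumors came macrophages (TuMac, 4 libraries for MC38 and 4 for LLC), the monocyte subset TuMon1 (Ly6C+ CD88+ Sca1+, MC38 tumors only, 4 libraries) and the subset TuMon2 (Ly6C+ CD88+ Sca1-, LLC tumors only, 4 libraries). Ly6C+ spleen monocytes (spMon) came from mice with either tumor, 4 libraries each. In culture, bone marrow monocytes received MC38 supernatant (3 libraries, labelled Ly6C+ CD88+ Sca1+) or LLC supernatant (3 libraries, labelled Ly6C+ CD88+ Sca1-) or neither (4 control libraries, labelled Ly6C+). Subset and tumor line coincide in the tumors, as the labelled cell type and the supernatant do in culture, and neither pair can be told apart. A difference described for a supernatant is thus one between cells whose labels also differ, in Sca1 between the supernatants. The labels give no age for the mice, and they leave unsaid if each replicate was its own animal or culture. The p-values thus measure the spread between these samples, which may be technical. In these bulk libraries, a smaller share of cells that express a gene and less of its RNA per cell cannot be told apart.

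Library totals lay between 13047772 and 26966644 estimated counts. Levels are given as CPM, the counts scaled to a common library size, which do not correct for gene length and compare a gene with itself only. Summed levels of 8 macrophage genes were 13230.0 to 13950.0 CPM in MC38 TuMac and 8678 to 9911 CPM in LLC TuMac, against 8310.0 to 9234 CPM in TuMon1, 4216 to 4408 CPM in TuMon2 and at most 2153 CPM in spleen monocytes. Ly6c2, a gene for the Ly6C antigen, was at 12.2 to 14.9 CPM in cells given LLC supernatant, which goes against their Ly6C+ label, and at 1204 to 1393 CPM with MC38 supernatant and 1520.0 to 1887 CPM in control cells. Spleen libraries 1, 2 and 3 of the MC38 mice held fat cell transcripts, with 7 marker genes summing to 6679, 6311 and 11170.0 CPM, against 21.2 CPM in library 4 and 8.10 to 12.3 CPM in LLC spleen libraries. The 5 fibroblast markers went with them, at 596, 534 and 967 CPM in these libraries and 0.662 CPM in library 4. Library 4 was also the highest of its group for the 5 neutrophil markers (1879 CPM in sum, against 438, 537 and 454 CPM in libraries 1, 2 and 3) and for the 5 cell cycle genes (144 CPM, against 47.8, 59.4 and 55.5 CPM). The part of these markers was not tested. Each comparison with MC38 spleen monocytes is therefore also given with library 4 alone. Of the tumor libraries, MC38 TuMac library 4 had the highest fat cell sum (96.7 CPM). MC38 TuMac libraries 1, 2 and 3 had 1.75, 17.7 and 2.93 CPM. That library was not counted among those with foreign transcripts, and the part of its fat cell transcripts was not tested. In culture, MC38 supernatant library 3 held fibroblast transcripts (5 markers summing to 2866 CPM) and control library 2 muscle transcripts (4 markers summing to 239 CPM). Control library 2 also had epithelial markers at 85.9 CPM in sum, against 0.732, 0.161 and 0.682 CPM in control libraries 1, 3 and 4. Its fibroblast markers summed to 31.8 CPM, against 1.98, 0.724 and 1.10 CPM in those libraries.

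Cholesterol is built from acetyl-CoA through mevalonate, isoprenyl diphosphates, squalene and lanosterol. The transcription factors encoded by Srebf2 and Srebf1 are made as membrane proteins of the endoplasmic reticulum, where Scap escorts them and the Insig proteins hold the complex back while sterol is plentiful. When sterol runs low, Scap carries them to the Golgi apparatus, where proteases release the active factor, and this factor binds promoters of most genes of the pathway, Insig1 and Srebf2 included. Macrophages also gain cholesterol from lipoproteins and engulfed cells, which enters through lysosomes, and sterol-activated liver X receptors then turn on genes such as Mylip, which curb uptake.

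Since most of these genes share control by the Srebf factors, promoter windows were searched for the letters of a sterol regulatory element (TCACNCCAC) and of the CCAAT box (CCAAT) that often stands beside it, on both strands. The RefSeq table (GRCm38.p6), with 250 bases before and 50 bases after each start site, held 24 of the 29 genes. Fdps, Fdft1, Sqle, Stard4 and Npc1 had no entry. The element's letters stood in 1 of the 24 genes, Hmgcs1, at 137 bases before the start site, against 1.44% of all 27025 genes in the table. CCAAT stood in 22 of the 24, all but Acat2 and Scap, against 41.1% of all genes in the table. The 2 motifs share no overlapping match in the windows shown. The bases just before the start site are printed 5′ to 3′ on the gene's strand, with the matches of either motif in capitals, also where the motif stands on the other strand and reads as its reverse complement (ATTGG for CCAAT). Hmgcs1 is shown for the element, Idi1, Cyp51, Msmo1 and Srebf2 for CCAAT in genes that were lower in TuMon1 than in TuMon2, Ebp for CCAAT in a gene that was not called, and Scap for neither motif.
Hmgcs1 (chr13:119690201-119690350, plus strand): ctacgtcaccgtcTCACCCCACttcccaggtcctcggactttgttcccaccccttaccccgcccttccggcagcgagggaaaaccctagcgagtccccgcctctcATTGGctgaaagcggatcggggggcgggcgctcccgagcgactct
Idi1 (chr13:8885506-8885605, plus strand): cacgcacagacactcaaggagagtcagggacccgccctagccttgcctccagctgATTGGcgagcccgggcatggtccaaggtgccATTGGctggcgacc
Cyp51 (chr5:4104698-4104797, minus strand): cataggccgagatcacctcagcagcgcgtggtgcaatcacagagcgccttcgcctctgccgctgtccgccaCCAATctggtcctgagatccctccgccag
Msmo1 (chr8:64733579-64733678, minus strand): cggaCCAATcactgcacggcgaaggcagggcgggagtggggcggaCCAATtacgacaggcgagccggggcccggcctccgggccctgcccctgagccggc
Srebf2 (chr15:82147119-82147268, plus strand): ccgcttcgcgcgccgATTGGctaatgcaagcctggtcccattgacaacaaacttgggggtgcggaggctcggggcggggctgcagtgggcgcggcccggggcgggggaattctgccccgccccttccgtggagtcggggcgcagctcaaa
Ebp (chrX:8193513-8193612, minus strand): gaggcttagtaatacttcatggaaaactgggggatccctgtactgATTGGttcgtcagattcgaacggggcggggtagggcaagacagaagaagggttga
Scap (chr9:110333188-110333287, plus strand): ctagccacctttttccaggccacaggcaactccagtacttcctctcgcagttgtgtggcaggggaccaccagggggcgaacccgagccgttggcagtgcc

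A match of letters is a description and not a bound site, and where there is none, it is only these letters that are missing from this window.

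The pathway was lower in TuMon1 than in TuMon2. Of the 29 genes, 19 were lower and 3 higher in TuMon1 (edgeR quasi-likelihood test, adjusted p under 0.05), where 22.1% of all 13200 genes tested were lower and 26.8% higher. Their median log2 difference was -0.78, against 0.06 over all genes tested. All 3 genes of the squalene and lanosterol steps, 6 of the 9 later enzymes and 4 of the 8 mevalonate genes were lower. None of these 20 enzymes was higher. Among the 5 sensor genes, Srebf1, Srebf2, Insig1 and Insig2 were lower and Scap higher. The 4 transport genes divided, with Stard4 and Npc1 lower and Npc2 and Mylip higher. No call was made for Acat2, Mvk, Pmvk, Ggps1, Tm7sf2, Ebp or Dhcr7. Summed levels of 5 epithelial or tumor cell markers were 5.60 to 7.83 CPM in TuMon1 and 41.3 to 65.6 CPM in TuMon2, where 4 of the 5 were detected and Krt19 was at 0 in every library. Cell cycle genes went the other way, with 5 of 5 higher in TuMon1 and sums of 95.5 to 114 CPM in TuMon1 and 27.2 to 34.8 CPM in TuMon2. Summed levels of 5 neutrophil markers, all detected, were 21.6 to 27.7 CPM in TuMon1 and 62.2 to 85.5 CPM in TuMon2. The part of these cells in the result, and that of the macrophage genes above, was not tested.

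Added up, the 19 enzymes other than Lbr came to a mean of 419 ± 34.9 CPM for TuMon1, against 898 ± 38.9 CPM for TuMon2 (mean ± SD, n = 4 each). Single libraries held 379 to 461 CPM in TuMon1 and 863 to 954 CPM in TuMon2, so the groups did not overlap. Macrophages showed a smaller gap in the same direction, at 338 to 393 CPM in MC38 TuMac and 505 to 573 CPM in LLC TuMac. Spleen monocytes stood close together, at 491 to 528 CPM in MC38 mice and 454 to 510.2 CPM in LLC mice. In culture the sums were 871 to 958 CPM with MC38 supernatant, 1820.0 to 1864 CPM with LLC supernatant and 369 to 389 CPM in control cells, 3 ranges far apart from one another. Such sums add levels not corrected for gene length and are compared between groups only. Lbr was kept out of the sum because its counts alone (450.5 to 562 CPM in control cells) would outweigh the 19 others there. The gap between MC38 supernatant and control depends on this choice. With Lbr added, the sums were 944 to 1026 CPM with MC38 supernatant and 819 to 951 CPM in control cells, which overlapped. LLC supernatant stayed apart at 1881 to 1924 CPM. TuMon1 (422 to 507 CPM) also stayed below TuMon2 (953 to 1035 CPM).

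**Figure D1:**
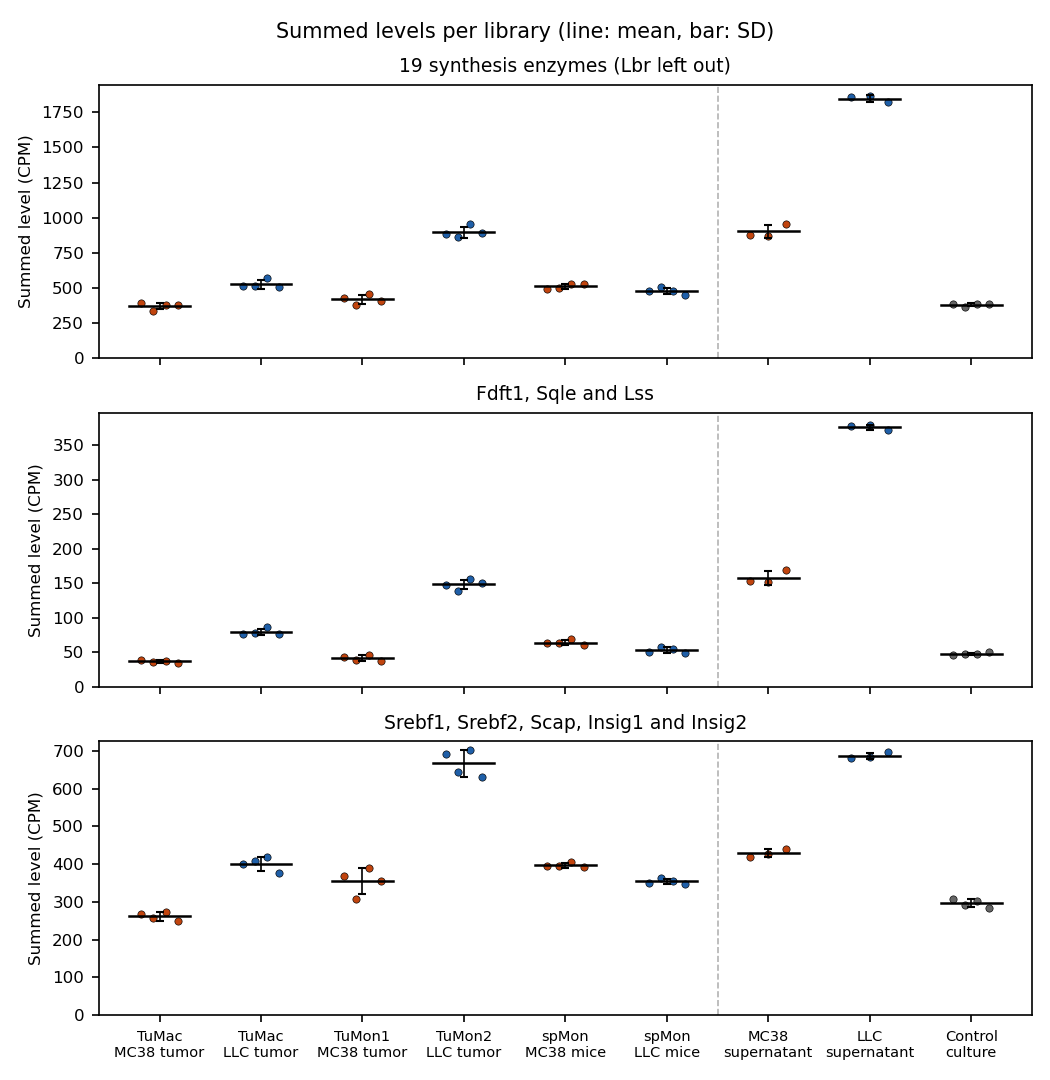
Summed level per library, in CPM, of the 19 enzymes other than Lbr (top), of Fdft1, Sqle and Lss (middle) and of the 5 sensor genes (bottom), by group, with points for libraries, lines for means and bars for the SD; the dashed line divides libraries from mice and from culture, which were scaled apart. TuMon2 is the highest group from mice in all 3 panels (631 to 704 CPM for the sensor genes, against 309 to 389 CPM in TuMon1), and LLC supernatant the highest in culture.

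In the gene accounts that follow, each list of values runs over libraries 1 to 4, or 1 to 3 for the supernatants, in CPM. A log2 difference is MC38 minus LLC, tumor minus spleen or macrophage minus monocyte, or supernatant minus control, with its SE after the ± sign. The comparisons share libraries (TuMon1, for one, stands in the comparisons with TuMon2, with spleen and with macrophages), so their values for a gene are set side by side and do not support one another.

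Hmgcs1 (Entrez Gene 208715, chr13:119690351-119708260), the synthase that makes HMG-CoA, had 43.7, 38.9, 50.8 and 39.5 CPM in TuMon1, against 106, 109, 105 and 106 CPM in TuMon2. All TuMon1 libraries lay below all TuMon2 libraries, and the level was 2.46-fold lower (log2 difference -1.30 ± 0.089, edgeR adjusted p = 2.45e-11). MC38 TuMac had 44.8, 36.5, 43.7 and 43.6 CPM, against 55.2, 61.3, 63.5 and 53.8 CPM in LLC TuMac, again without overlap (-0.47 ± 0.089, edgeR adjusted p = 9.89e-05). In spleen monocytes the values were 78.99, 79.8, 93.3 and 69.03 CPM in MC38 mice and 60.9, 60.8, 58.4 and 61.7 CPM in LLC mice, so spleen showed the opposite order, which with MC38 library 4 alone was not called (0.20, edgeR adjusted p = 0.721). Cultured cells had 122, 116 and 155 CPM with MC38 supernatant, 245, 252 and 237 CPM with LLC supernatant and 40.6, 41.4, 39.5 and 46.2 CPM as controls. The 3 culture groups formed separate steps, and MC38 supernatant stood 1.87-fold below LLC supernatant (-0.90 ± 0.10, edgeR adjusted p = 8.97e-05).

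Mvd (Entrez Gene 192156, chr8:122433596-122443422), which decarboxylates mevalonate diphosphate, had 10.1, 9.83, 11.3 and 11.1 CPM in TuMon1 and 22.6, 24.8, 25.1 and 24.7 CPM in TuMon2. Its TuMon1 libraries all lay lower (-1.20 ± 0.12, edgeR adjusted p = 1.45e-08). The macrophage values were 8.60, 8.54, 7.59 and 8.05 CPM for MC38 and 16.7, 15.2, 18.7 and 18.6 CPM for LLC, a gap of nearly the same size (-1.07 ± 0.12, edgeR adjusted p = 8.05e-08). Unlike most of the pathway, Mvd was highest among the mouse groups in spleen, at 26.1, 27.9, 26.3 and 38.6 CPM in MC38 mice and 37.99, 45.7, 38.7 and 30.7 CPM in LLC mice. With MC38 supernatant it had 22.6, 26.6 and 23.8 CPM, with LLC supernatant 77.05, 76.9 and 76.3 CPM and in control cells 28.7, 22.6, 27.4 and 23.03 CPM. MC38 supernatant overlapped with the controls (-0.067 ± 0.096, edgeR adjusted p = 0.555), whereas LLC supernatant lay far above them (1.59 ± 0.094, edgeR adjusted p = 1.27e-07).

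Idi1 (Entrez Gene 319554, chr13:8885606-8892396), the isomerase of the isoprenyl units, had 26.7, 22.7, 32.2 and 26.8 CPM in TuMon1 and 80.7, 81.2, 80.2 and 79.4 CPM in TuMon2. The TuMon2 libraries were nearly equal, and TuMon1 stood 2.96-fold lower (-1.57 ± 0.11, edgeR adjusted p = 1.79e-11). MC38 TuMac, at 28.6, 24.5, 26.6 and 32.4 CPM, lay below LLC TuMac, at 40.1, 44.5, 43.1 and 33.7 CPM (-0.53 ± 0.10, edgeR adjusted p = 2e-04). Spleen values overlapped, at 34.3, 35.6, 37.1 and 46.1 CPM in MC38 mice and 36.2, 34.6, 33.8 and 36.1 CPM in LLC mice, and TuMon1 was thus below spleen where TuMon2 was above it. The culture values were 70.1, 61.3 and 61.98 CPM with MC38 supernatant, 133, 127 and 127 CPM with LLC supernatant and 18.6, 11.9, 17.7 and 19.7 CPM in controls. Idi1 was above control with both supernatants, the more so with LLC (MC38 minus LLC -1.0 ± 0.15, edgeR adjusted p = 0.000442).

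Fdps (Entrez Gene 110196, chr3:89093588-89101967) makes farnesyl diphosphate, the branch point to sterols and prenyl groups. It had 40.3, 34.6, 43.7 and 38.4 CPM in TuMon1 and 76.1, 82.3, 99.5 and 88.6 CPM in TuMon2, with no overlap (-1.14 ± 0.12, edgeR adjusted p = 2.18e-08). In TuMac it had 36.5, 30.5, 34.2 and 25.1 CPM for MC38 and 45.4, 39.02, 52.5 and 49.5 CPM for LLC, a smaller gap (-0.56 ± 0.12, edgeR adjusted p = 0.000359). Spleen monocytes had 36.9, 40.9, 37.2 and 49.4 CPM in MC38 mice and 41.7, 47.9, 43.2 and 38.8 CPM in LLC mice, which overlapped. Cells in culture had 102, 106 and 102 CPM with MC38 supernatant, 250.2, 249 and 244 CPM with LLC supernatant and 46.95, 50.8, 45.6 and 44.4 CPM without either, in 3 separate ranges. MC38 supernatant was 2.4-fold below LLC supernatant (-1.26 ± 0.059, edgeR adjusted p = 2.06e-07).

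Acat2 (Entrez Gene 110460, chr17:12943042-12960725), the thiolase at the entry of the pathway, may share reads with its near-identical neighbour Acat3, so its counts are uncertain. It had 8.23, 8.63, 6.03 and 8.82 CPM in TuMon1 and 9.60, 7.34, 8.25 and 8.58 CPM in TuMon2, which overlapped, and the difference was not called (-0.085 ± 0.22, edgeR adjusted p = 0.773). TuMac had 9.55, 7.82, 9.68 and 10.4 CPM for MC38 and 9.07, 6.99, 11.5 and 7.43 CPM for LLC, overlapping too. Spleen set the 3 MC38 libraries with fat cell transcripts apart, since the values were 23.9, 18.04, 23.3 and 8.87 CPM in MC38 mice, library 4 being the low one, and 7.88, 10.02, 10.1 and 10.1 CPM in LLC mice. In culture the gene did separate, with 29.8, 34.2 and 37.98 CPM for MC38 supernatant, 65.02, 64.6 and 62.95 CPM for LLC supernatant and 13.3, 14.3, 13.9 and 12.8 CPM for controls (MC38 minus LLC -0.92 ± 0.087, edgeR adjusted p = 2.46e-05).

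Pmvk (Entrez Gene 68603, chr3:89454541-89469014), a kinase of the mevalonate steps, had 37.7, 31.99, 44.3 and 38.01 CPM in TuMon1 and 45.7, 38.1, 48.9 and 48.2 CPM in TuMon2. The ranges overlapped and no call was made (-0.25 ± 0.13, edgeR adjusted p = 0.111), though a fit of these groups alone did call it (-0.28, edgeR adjusted p = 0.0231). MC38 TuMac, with 24.1, 16.9, 24.01 and 21.1 CPM, lay below LLC TuMac, with 26.8, 25.2, 30.8 and 33.5 CPM (-0.43 ± 0.13, edgeR adjusted p = 0.0081). Spleen monocytes were lower than tumor monocytes for both tumors, with 23.02, 17.6, 23.1 and 16.2 CPM in MC38 mice and 15.4, 16.9, 16.9 and 15.03 CPM in LLC mice. Culture gave 19.9, 22.03 and 20.1 CPM with MC38 supernatant, 31.4, 33.9 and 31.1 CPM with LLC supernatant and 10.5, 10.5, 10.98 and 10.2 CPM in controls, each group apart from the next (MC38 minus LLC -0.64 ± 0.073, edgeR adjusted p = 8.87e-05). The other 2 mevalonate genes, the kinase gene Mvk and Ggps1, which makes the prenyl donor geranylgeranyl diphosphate, were not called between tumor monocytes (0.016 ± 0.20 for Mvk and 0.23 ± 0.10 for Ggps1). Mvk ranged over 6.80 to 9.43 CPM in TuMon1 and 6.72 to 8.93 CPM in TuMon2, and Ggps1 over 19.96 to 23.1 CPM in TuMon1 and 16.6 to 19.8 CPM in TuMon2. In culture Mvk was 1.97-fold lower with MC38 than with LLC supernatant and Ggps1 was 1.34-fold higher (0.42 ± 0.075, edgeR adjusted p = 0.00142 for Ggps1).

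Sqle (Entrez Gene 20775, chr15:59315092-59331193), the squalene epoxidase and an oxygen-dependent control point of the pathway, had 12.02, 10.5, 13.1 and 11.6 CPM in TuMon1, against 62.1, 59.4, 62.9 and 58.5 CPM in TuMon2. No library came near the other group, and Sqle had the largest difference of the 29 genes, 5.14-fold lower (-2.36 ± 0.093, edgeR adjusted p = 2.63e-15). In MC38 TuMac it had 13.7, 11.2, 11.5 and 11.2 CPM, against 34.9, 35.1, 37.7 and 32.95 CPM in LLC TuMac, also the largest macrophage gap of the 29 (-1.56 ± 0.091, edgeR adjusted p = 6.64e-13). Spleen monocytes overlapped, with 17.2, 18.3, 17.04 and 21.2 CPM in MC38 mice and 14.6, 18.7, 17.1 and 17.2 CPM in LLC mice. The cultures had 80.4, 73.3 and 81.3 CPM under MC38 supernatant, 182, 182 and 179.5 CPM under LLC supernatant and 10.3, 11.7, 10.8 and 12.1 CPM as controls. Over control, Sqle was 6.98-fold higher with MC38 supernatant and 16.2-fold higher with LLC supernatant, and MC38 supernatant lay below LLC supernatant (-1.21 ± 0.07, edgeR adjusted p = 9.51e-07).

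Fdft1 (Entrez Gene 14137, chr14:63145150-63181687), the squalene synthase, had 24.8, 21.2, 24.5 and 20.1 CPM in TuMon1 and 69.98, 64.9, 75.5 and 74.1 CPM in TuMon2. TuMon1 was 3.14-fold lower with no overlap (-1.65 ± 0.081, edgeR adjusted p = 5.98e-14). MC38 TuMac had 17.7, 16.7, 16.7 and 15.9 CPM and LLC TuMac 30.5, 30.2, 33.6 and 31.5 CPM, apart as well (-0.91 ± 0.081, edgeR adjusted p = 1.26e-09). The spleen values, 33.3, 33.4, 37.5 and 31.2 CPM in MC38 mice and 28.6, 31.9, 29.6 and 26.8 CPM in LLC mice, overlapped. In the cultures it stood at 46.98, 47 and 53.3 CPM with MC38 supernatant, 95.2, 97.4 and 94.9 CPM with LLC supernatant and 31.5, 30.1, 31.2 and 31.8 CPM in controls. Here MC38 supernatant was 1.95-fold below LLC supernatant (-0.96 ± 0.063, edgeR adjusted p = 1.95e-06).

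Lss (Entrez Gene 16987, chr10:76531565-76557139), which folds squalene epoxide into lanosterol, had 6.55, 7.23, 8.77 and 6.15 CPM in TuMon1 and 15.8, 14.8, 17.03 and 18.2 CPM in TuMon2, which did not overlap (-1.20 ± 0.15, edgeR adjusted p = 3.31e-07). TuMac had 7.72, 8.18, 8.66 and 7.56 CPM for MC38 and 11.4, 12.7, 14.97 and 12.02 CPM for LLC (-0.67 ± 0.14, edgeR adjusted p = 0.000495). Spleen monocytes of MC38 mice, at 12.8, 11.5, 13.96 and 8.40 CPM, lay above those of LLC mice, at 7.11, 7.36, 7.50 and 5.14 CPM, and MC38 library 4 was the lowest of its group. Lss had the widest span of group means of the 29 genes in culture, with 25.7, 30.8 and 34.96 CPM for MC38 supernatant, 100.4, 98.9 and 97.5 CPM for LLC supernatant and 4.65, 6.01, 5.03 and 6.24 CPM for controls. LLC supernatant cells held 18.1-fold more than controls and MC38 supernatant cells 5.59-fold more, and the supernatants differed as well (-1.70 ± 0.13, edgeR adjusted p = 5.23e-06).

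**Figure D2:**
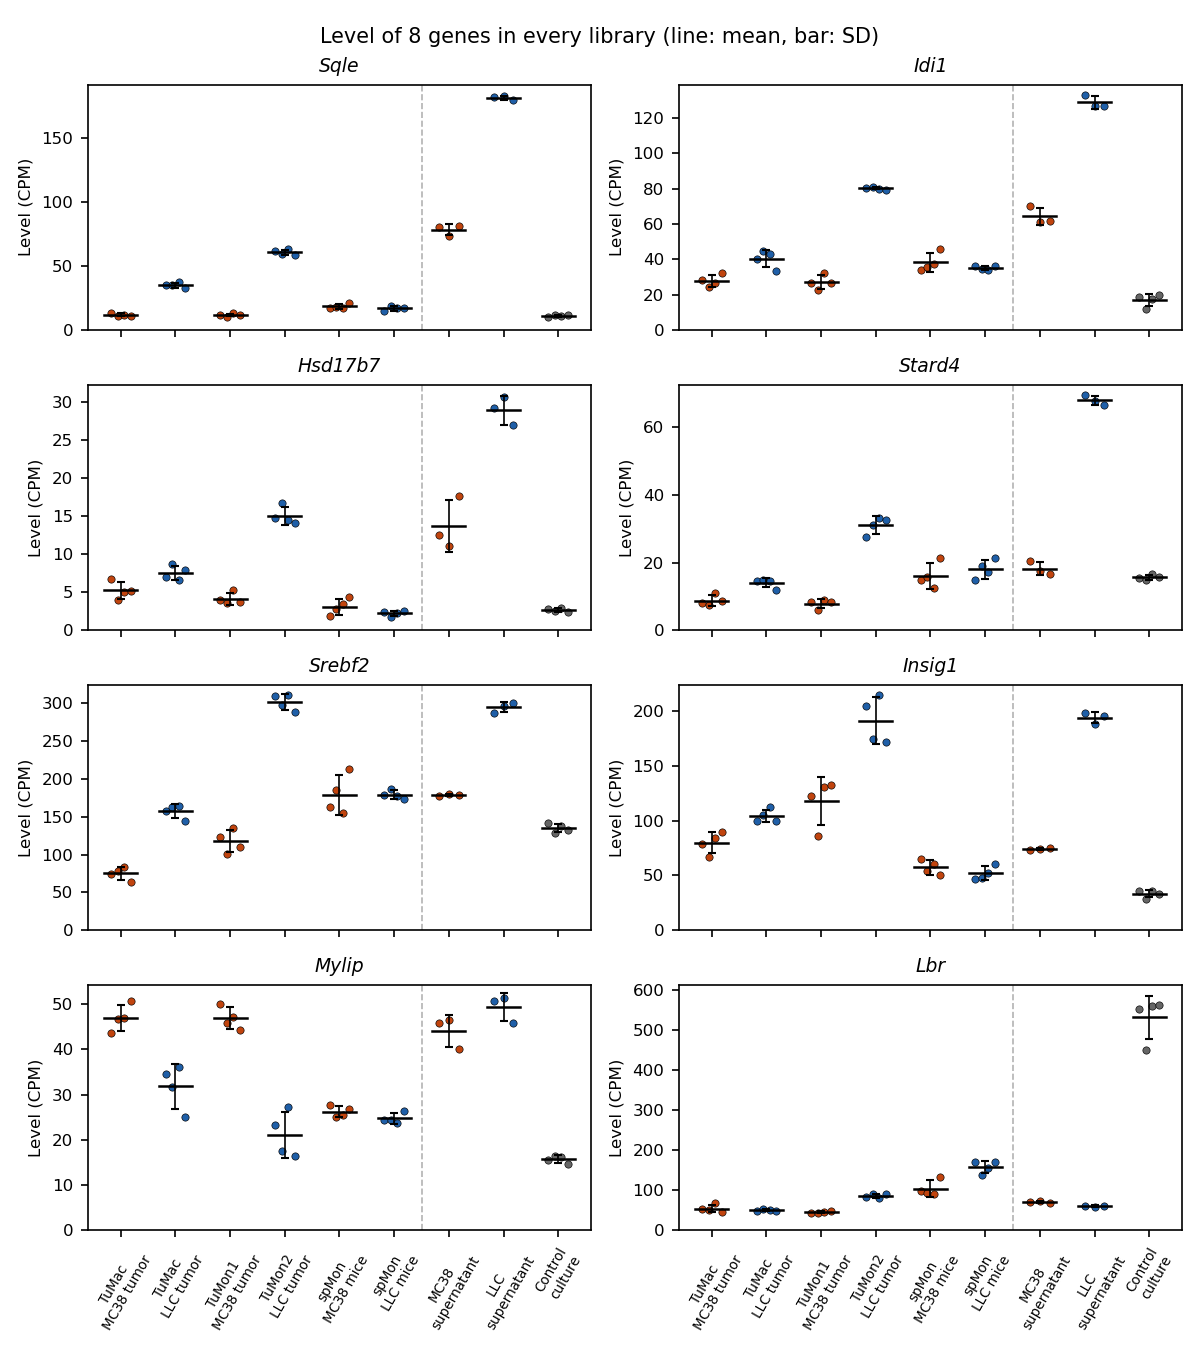
Level in CPM of 8 genes (Sqle, Idi1, Hsd17b7, Stard4, Srebf2, Insig1, Mylip and Lbr) in every library, by group, with lines for means and bars for the SD; each panel has its own axis from 0. Sqle, Idi1, Hsd17b7, Stard4, Srebf2 and Insig1 are highest in TuMon2 among mouse groups and with LLC supernatant in culture, Mylip has its lowest mean among mouse groups in TuMon2 (16.4 to 27.2 CPM), and Lbr stands at 450.5 to 562 CPM in control cultures, above both supernatant groups.

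Cyp51 (Entrez Gene 13121, chr5:4080674-4104697), the lanosterol demethylase, had 55.8, 39.95, 61.1 and 53.8 CPM in TuMon1 and 144, 127, 157 and 127 CPM in TuMon2. TuMon1 was lower in each library (-1.40 ± 0.11, edgeR adjusted p = 2.67e-10). In macrophages it had 34.7, 28.2, 37.3 and 35.5 CPM for MC38 and 60.4, 57.5, 68.2 and 56.9 CPM for LLC (-0.84 ± 0.11, edgeR adjusted p = 8.73e-07). Spleen gave 42.2, 48.5, 46.9 and 55.9 CPM for MC38 mice and 47.4, 48.9, 44.6 and 49.1 CPM for LLC mice, overlapping. The cultured cells had 71.7, 72.4 and 83.04 CPM with MC38 supernatant, 145, 144 and 146 CPM with LLC supernatant and 21.7, 29.8, 21.1 and 21.9 CPM as controls, with the 3 groups apart (-0.93 ± 0.12, edgeR adjusted p = 0.000203 between supernatants).

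Msmo1 (Entrez Gene 66234, chr8:64718123-64733578) oxidizes the methyl groups of lanosterol-derived sterols. It had 35.3, 33.3, 36.9 and 35.4 CPM in TuMon1 and 95.2, 93.04, 104 and 87.1 CPM in TuMon2, with the 4 TuMon1 libraries close together and far below (-1.43 ± 0.091, edgeR adjusted p = 6.2e-12). Macrophages had 33.3, 28.1, 32.6 and 31.8 CPM in MC38 and 51.3, 52.2, 54.3 and 50.1 CPM in LLC tumors (-0.72 ± 0.09, edgeR adjusted p = 3.52e-07). The spleen groups overlapped at 39.3, 44.2, 37.4 and 53.5 CPM in MC38 mice and 48.6, 42.4, 39.2 and 43.02 CPM in LLC mice. Culture levels were 81.8, 79.1 and 87.1 CPM with MC38 supernatant, 187, 183 and 182 CPM with LLC supernatant and 18.2, 13.7, 17.01 and 21.4 CPM in controls. MC38 supernatant lay 2.23-fold below LLC supernatant (-1.15 ± 0.12, edgeR adjusted p = 5.51e-05), both above control.

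Hsd17b7 (Entrez Gene 15490, chr1:169949535-169969242), the keto-sterol reductase that acts with Nsdhl, had 3.99, 3.59, 5.26 and 3.68 CPM in TuMon1 and 14.7, 16.8, 14.5 and 14.1 CPM in TuMon2. Though low, its levels did not overlap and were 3.63-fold lower in TuMon1 (-1.86 ± 0.20, edgeR adjusted p = 4.49e-08). MC38 TuMac had 6.73, 3.99, 5.08 and 5.20 CPM and LLC TuMac 6.97, 8.69, 6.62 and 7.88 CPM, which overlapped (-0.52 ± 0.20, edgeR adjusted p = 0.0323). That call was lost when MC38 TuMac library 2, 3 or 4 or LLC TuMac library 2 or 4 was left out (edgeR adjusted p from 0.0688 to 0.136). By group means, spleen monocytes held the least, 1.82, 2.73, 3.49 and 4.30 CPM in MC38 mice and 2.39, 1.76, 2.23 and 2.54 CPM in LLC mice. Culture gave 12.4, 11.1 and 17.6 CPM with MC38 supernatant, 29.2, 30.7 and 26.9 CPM with LLC supernatant and 2.78, 2.48, 2.98 and 2.41 CPM in controls, so that each supernatant lay above the controls and LLC above MC38 (-1.07 ± 0.16, edgeR adjusted p = 0.000496).

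Sc5d (Entrez Gene 235293, chr9:42251592-42264300), a sterol desaturase near the end of the pathway, had 15.2, 12.8, 16.7 and 14.4 CPM in TuMon1 and 42.2, 43.5, 53.4 and 47.7 CPM in TuMon2, 3.16-fold lower in TuMon1 (-1.66 ± 0.14, edgeR adjusted p = 4.45e-10). TuMac followed at 12.6, 9.56, 12.1 and 14.5 CPM for MC38 and 15.7, 20.8, 22.3 and 18.4 CPM for LLC, without overlap (-0.66 ± 0.14, edgeR adjusted p = 0.000287). In spleen the groups overlapped, with 26.2, 22.7, 29.3 and 19.9 CPM in MC38 mice and 20.03, 18.8, 20.3 and 24.2 CPM in LLC mice. Its culture values were 34.4, 30.6 and 37.4 CPM with MC38 supernatant, 64.9, 70.9 and 63.5 CPM with LLC supernatant and 18.5, 14, 15.5 and 17.4 CPM in controls (-0.96 ± 0.11, edgeR adjusted p = 8.94e-05 between supernatants, which did not overlap).

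Nsdhl (Entrez Gene 18194, chrX:72918521-72958528), the sterol dehydrogenase, differed little in the tumors and in opposite directions by cell type. It had 18.3, 18.3, 16.5 and 15.6 CPM in TuMon1 and 20.8, 19.4, 22.7 and 21.9 CPM in TuMon2, lower in TuMon1 without overlap (-0.30 ± 0.097, edgeR adjusted p = 0.0119). In TuMac it had 17.6, 17.8, 18.2 and 17.7 CPM for MC38 and 14.1, 16.9, 13.1 and 14.9 CPM for LLC, higher for MC38 (0.27 ± 0.097, edgeR adjusted p = 0.0246), a call lost without LLC TuMac library 1 or 3 (edgeR adjusted p = 0.0607 and 0.0831). Spleen monocytes had 17.4, 16.7, 20.98 and 14.8 CPM in MC38 mice and 14.5, 16.3, 16.7 and 15.1 CPM in LLC mice, overlapping. Cultures separated widely, with 29.6, 31.7 and 35.5 CPM for MC38 supernatant, 65.1, 67.2 and 65.2 CPM for LLC supernatant and 14.2, 17.7, 16.2 and 14.4 CPM for controls (-1.03 ± 0.096, edgeR adjusted p = 2.18e-05 between supernatants).

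Lbr (Entrez Gene 98386, chr1:181815315-181842401) encodes the lamin B receptor, a protein of the inner nuclear membrane that also carries a sterol reductase. It had 43.4, 42.6, 46.5 and 47.9 CPM in TuMon1 and 82.8, 90.5, 80.99 and 91.5 CPM in TuMon2, lower in every TuMon1 library (-0.94 ± 0.11, edgeR adjusted p = 2.41e-07). Macrophages overlapped at 52.99, 49.95, 68.04 and 46.3 CPM in MC38 and 47.8, 53.95, 51.6 and 49.4 CPM in LLC tumors (0.098 ± 0.11, edgeR adjusted p = 0.507). By group means, spleen monocytes held more than any tumor group, 99.5, 93.8, 89.6 and 134 CPM in MC38 mice and 169.7, 139, 155 and 171 CPM in LLC mice. In culture Lbr ran against the pathway, at 70.1, 72.5 and 68.3 CPM with MC38 supernatant and 62.2, 59.3 and 61.5 CPM with LLC supernatant, against 553, 450.5, 559.8 and 562 CPM in controls. With MC38 supernatant it was 7.55-fold lower (-2.92 ± 0.087, edgeR adjusted p = 7.52e-10). With LLC supernatant it was 8.71-fold lower (-3.12 ± 0.088, edgeR adjusted p = 5.32e-10). The supernatants were not called apart (0.21 ± 0.084, edgeR adjusted p = 0.0778), but they were without the libraries with foreign transcripts (0.24, edgeR adjusted p = 0.000133). The 5 cell cycle genes were also lower under both supernatants, with sums of 236 to 293 CPM under MC38 supernatant, 632 to 693 CPM under LLC supernatant and 2526 to 3201 CPM in controls. Their part was not tested.

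Ebp (Entrez Gene 13595, chrX:8185329-8193512), a sterol isomerase, was not called between tumor monocytes, between tumor macrophages or between supernatants. It had 48.3, 45.9, 43.7 and 42.4 CPM in TuMon1 and 41.9, 41.5, 42.2 and 43.8 CPM in TuMon2, overlapping (0.089 ± 0.092, edgeR adjusted p = 0.451). TuMac had 46.3, 40.6, 45.3 and 48.6 CPM for MC38 and 45.5, 40.03, 46.1 and 38.4 CPM for LLC. Spleen values were 36.2, 40.6, 36.4 and 41.5 CPM in MC38 mice and 52.5, 61.3, 54.5 and 41.02 CPM in LLC mice. The cultures had 52.05, 50.9 and 46.05 CPM with MC38 supernatant, 50.4, 51 and 49.1 CPM with LLC supernatant and 60.6, 44.97, 60.04 and 58.7 CPM in controls, and the supernatants overlapped (-0.014 ± 0.11, edgeR adjusted p = 0.932). Without control library 2, the low one, Ebp was called lower than control with either supernatant (-0.27, edgeR adjusted p = 0.00103 for MC38 and -0.26, edgeR adjusted p = 0.00144 for LLC). Of the other 2 genes of this stage, the reductase genes Tm7sf2 and Dhcr7, neither was called between tumor monocytes (-0.10 ± 0.20 for Tm7sf2 and -0.17 ± 0.13 for Dhcr7). Tm7sf2 ranged over 2.14 to 3.28 CPM in TuMon1 and 2.90 to 3.36 CPM in TuMon2, and Dhcr7 over 7.81 to 11.3 CPM in TuMon1 and 10.1 to 12.1 CPM in TuMon2. In culture both were lower with MC38 than with LLC supernatant (-1.38 ± 0.12, edgeR adjusted p = 1.72e-05 for Tm7sf2 and -1.12 ± 0.082, edgeR adjusted p = 4.26e-06 for Dhcr7).

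Stard4 (Entrez Gene 170459), a soluble carrier that moves sterol between membranes, had 8.37, 5.88, 8.83 and 8.47 CPM in TuMon1 and 27.5, 31.2, 33.2 and 32.7 CPM in TuMon2. It was 3.95-fold lower in TuMon1, the second largest fall of the 29 genes (-1.98 ± 0.16, edgeR adjusted p = 2.59e-10). TuMac had 8.16, 7.39, 10.9 and 8.58 CPM for MC38 and 14.5, 14.8, 14.6 and 12.02 CPM for LLC, lower for MC38 in each library (-0.68 ± 0.15, edgeR adjusted p = 0.000765). Spleen monocytes overlapped, with 14.8, 15.7, 12.5 and 21.4 CPM in MC38 mice and 14.7, 19.1, 17.2 and 21.4 CPM in LLC mice. In culture it had 20.6, 17.4 and 16.8 CPM with MC38 supernatant, 69.5, 67.8 and 66.7 CPM with LLC supernatant and 15.5, 14.7, 16.5 and 15.7 CPM in controls. MC38 supernatant thus stood just above control (0.22 ± 0.079, edgeR adjusted p = 0.0279), a call lost without MC38 supernatant library 1 (edgeR adjusted p = 0.0857), and 3.73-fold below LLC supernatant (-1.90 ± 0.086, edgeR adjusted p = 1.71e-07).

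Npc2 (Entrez Gene 67963, chr12:84754559-84773112), the lysosomal protein that hands cholesterol on for export, had 2057, 2078, 1945 and 2179 CPM in TuMon1 and 1667, 1600.0, 1745 and 1751 CPM in TuMon2, higher in TuMon1 without overlap (0.29 ± 0.078, edgeR adjusted p = 0.00372). The call was lost without TuMon1 library 4 or TuMon2 library 1 or 2 (edgeR adjusted p from 0.0531 to 0.0672). TuMac had 1187, 1148, 1084 and 956 CPM for MC38 and 758, 664, 785 and 801 CPM for LLC, in the same order (0.54 ± 0.078, edgeR adjusted p = 3.46e-06). Spleen monocytes had 785, 791, 723 and 873 CPM in MC38 mice and 934, 1069, 1068 and 923 CPM in LLC mice, in the reverse order. Supernatants gave 1917, 1932 and 1699 CPM for MC38 and 1439, 1409 and 1404 CPM for LLC, against 846, 716, 872 and 845 CPM in controls, again higher for MC38 (0.38 ± 0.083, edgeR adjusted p = 0.00465). Npc1, the membrane protein that takes over the sterol, ranged over 118 to 137 CPM in TuMon1 and 142 to 165 CPM in TuMon2 and was lower in TuMon1 (-0.27 ± 0.094, edgeR adjusted p = 0.0204). That call was lost without TuMon1 library 2 or 4 or TuMon2 library 2 (edgeR adjusted p from 0.0508 to 0.0842). In culture Npc1 was 4.21-fold above control with MC38 supernatant and 4.94-fold above it with LLC supernatant.

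Mylip (Entrez Gene 218203, chr13:45389742-45411940), a ubiquitin ligase that curbs lipoprotein uptake, ran opposite to most of the enzymes, with 50, 45.8, 47.2 and 44.3 CPM in TuMon1 and 23.3, 17.4, 27.2 and 16.4 CPM in TuMon2. Every TuMon1 library lay above every TuMon2 library, and Mylip was 2.23-fold higher (1.16 ± 0.12, edgeR adjusted p = 2.53e-08). MC38 TuMac had 43.7, 46.6, 46.9 and 50.6 CPM and LLC TuMac 34.5, 31.7, 36.1 and 25 CPM, in the same order (0.56 ± 0.12, edgeR adjusted p = 0.000356). Spleen levels overlapped, with 27.6, 25.03, 25.4 and 26.9 CPM in MC38 mice and 24.5, 24.4, 23.7 and 26.3 CPM in LLC mice. In culture that order was absent, since the values were 45.7, 46.4 and 40.01 CPM with MC38 supernatant and 50.7, 51.4 and 45.7 CPM with LLC supernatant, which overlapped (-0.16 ± 0.082, edgeR adjusted p = 0.143). Controls had 15.7, 16.5, 16.2 and 14.6 CPM, below both.

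Srebf2 (Entrez Gene 20788, chr15:82147269-82205379), the main activator of the cholesterol genes, had 123, 101, 135 and 110.3 CPM in TuMon1 and 309, 298, 311 and 289 CPM in TuMon2, 2.57-fold lower in TuMon1 (-1.36 ± 0.096, edgeR adjusted p = 3.85e-11). In TuMac it had 74.7, 78.1, 83.7 and 64.1 CPM for MC38 and 157, 163, 164 and 144 CPM for LLC, 2.09-fold lower for MC38 (-1.07 ± 0.096, edgeR adjusted p = 1.59e-09). Spleen monocytes overlapped, at 163, 185, 154 and 214 CPM in MC38 mice and 178, 187, 177 and 173 CPM in LLC mice. The cultures formed 3 steps, 177, 179.9 and 178 CPM with MC38 supernatant, 287, 296 and 301 CPM with LLC supernatant and 142, 128, 138 and 132 CPM in controls (-0.72 ± 0.053, edgeR adjusted p = 4.21e-06 between supernatants).

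Srebf1 (Entrez Gene 20787, chr11:60199084-60224186), whose products act more on fatty acid genes, had 74.1, 74.8, 77.3 and 69.9 CPM in TuMon1 and 132, 121, 132 and 123 CPM in TuMon2. It was lower in TuMon1 in each library (-0.78 ± 0.11, edgeR adjusted p = 2.23e-06). TuMac had 57.1, 57.5, 57.2 and 47.9 CPM for MC38 and 86.9, 80.05, 87.5 and 80.4 CPM for LLC (-0.61 ± 0.11, edgeR adjusted p = 5.69e-05). In spleen, MC38 mice gave 110.1, 99.5, 129 and 70.9 CPM, where library 4 without fat cell transcripts was the low one, and LLC mice 69.7, 70.6, 72.05 and 65.2 CPM. Culture values were 106, 112 and 107 CPM with MC38 supernatant, 139.6, 142 and 143 CPM with LLC supernatant and 72.8, 64.9, 75.1 and 67.2 CPM in controls (-0.39 ± 0.064, edgeR adjusted p = 0.000824 between supernatants, which did not overlap).

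Insig1 (Entrez Gene 231070, chr5:28071412-28078662), a retention protein that is itself a target of the pathway, had 122, 85.9, 130.3 and 132 CPM in TuMon1 and 204, 174, 214 and 171 CPM in TuMon2, lower in TuMon1 (-0.70 ± 0.12, edgeR adjusted p = 3.66e-05). MC38 TuMac had 78.4, 67.1, 84.05 and 89.7 CPM and LLC TuMac 99.98, 105, 112 and 99.6 CPM, with a call (-0.38 ± 0.12, edgeR adjusted p = 0.0106) that was lost without MC38 TuMac library 2 (edgeR adjusted p = 0.0569). Spleen held the least, 65.4, 53.8, 60.9 and 50.4 CPM in MC38 mice and 47.03, 48.1, 52.5 and 60.6 CPM in LLC mice. Insig1 was therefore above spleen in both kinds of tumor monocyte, while Srebf2 in TuMon1 was below it. In culture it had 73.2, 74 and 75.4 CPM with MC38 supernatant, 198, 188 and 195 CPM with LLC supernatant and 35.6, 28.7, 35.8 and 33.5 CPM in controls, 2.61-fold lower with MC38 than LLC supernatant (-1.39 ± 0.08, edgeR adjusted p = 9.01e-07).

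Insig2 (Entrez Gene 72999, chr1:121304353-121332662), the other retention protein, had 20.5, 18.3, 19.2 and 17.8 CPM in TuMon1 and 22.3, 26.3, 23.9 and 25.98 CPM in TuMon2, a small gap without overlap (-0.38 ± 0.12, edgeR adjusted p = 0.0109). TuMac overlapped at 17.8, 16.6, 13.3 and 16.2 CPM for MC38 and 21.03, 22.98, 16.2 and 15.96 CPM for LLC, and so did spleen at 17.5, 17.2, 20.8 and 14.6 CPM in MC38 mice and 15.4, 17.5, 14.8 and 14.3 CPM in LLC mice. It was above control with both supernatants, with 34.6, 32.7 and 35.3 CPM for MC38 supernatant, 30.97, 32.3 and 31.2 CPM for LLC supernatant and 13.6, 10.9, 14.03 and 12.4 CPM for controls. The supernatants were not called apart (0.12 ± 0.092, edgeR adjusted p = 0.337). Scap (Entrez Gene 235623, chr9:110333288-110384949), the escort, had 29.1, 28.6, 27.7 and 24.9 CPM in TuMon1 and 24.2, 25.03, 22.7 and 22.3 CPM in TuMon2, which overlapped, and was called slightly higher in TuMon1 (0.23 ± 0.079, edgeR adjusted p = 0.0198). This call was weak, as it was lost without the filter on low counts (edgeR adjusted p = 0.0571) and without TuMon1 library 1, MC38 spleen library 1 or 2 or any of the 4 TuMon2 libraries (edgeR adjusted p from 0.054 to 0.184). TuMac had 39.1, 37.4, 35.9 and 30.6 CPM for MC38 and 34.4, 36.7, 39.5 and 35.9 CPM for LLC, and spleen 38.9, 40.7, 41.5 and 42.2 CPM in MC38 mice and 38.2, 41.6, 39.6 and 34.9 CPM in LLC mice, all above the tumor monocytes. The cultures had 28.2, 29.1 and 44.9 CPM with MC38 supernatant, where library 3 with fibroblast transcripts was the high one, 26.6, 25.8 and 26.6 CPM with LLC supernatant and 43.6, 57.8, 39.05 and 38.6 CPM in controls.

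**Figure D3:**
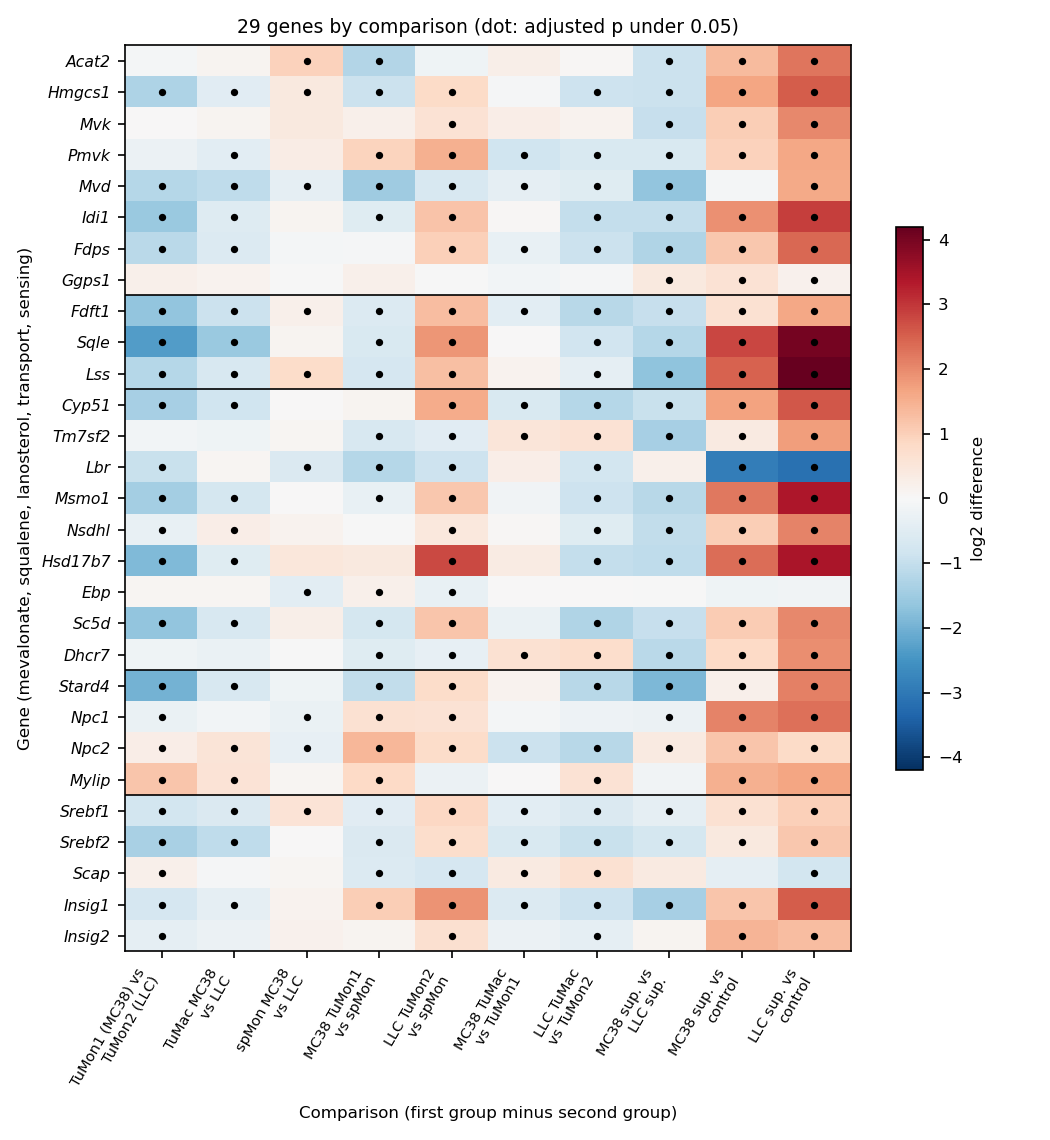
Log2 difference (first group minus second, colour) of the 29 genes, in pathway order down the page, in 10 comparisons, with a dot where the edgeR adjusted p was under 0.05. Blue fills most rows for MC38 against LLC in tumor monocytes, macrophages and supernatants and red most rows for LLC TuMon2 against spleen and for both supernatants against control, while Ebp stays near 0 and Lbr is blue against control.

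Between macrophages of the tumors, 16 of the 29 genes were lower and 3 higher for MC38, where 22.9% of all genes tested were lower and 22.4% higher. The median log2 difference was -0.43, against -0.0026 over all genes. Sqle, Mvd and Srebf2 had the largest falls, and the genes that were higher were Nsdhl, Npc2 and Mylip. Of the 29 genes, 15 were lower for MC38 in both monocytes and macrophages and 2, Npc2 and Mylip, higher in both. Over all genes tested 14.6% were lower in both and 16.3% higher in both. Nsdhl was the 1 gene called in opposite directions, against 1.18% of all genes. These comparisons share no library. Epithelial or tumor cell markers were 5.50 to 8.08 CPM in sum in MC38 TuMac and 91.6 to 144 CPM in LLC TuMac, where 3 of the 5 were detected and Epcam and Krt19 were at 0. Cell cycle genes summed to 680.5 to 708 CPM in MC38 TuMac and 136 to 229 CPM in LLC TuMac, and 6 monocyte markers to 1616 to 1935 CPM in MC38 TuMac and 3262 to 3914 CPM in LLC TuMac. Their part was not tested.

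Spleen monocytes, taken outside the tumor, showed no common direction among the genes called. By sign alone, called or not, 20 of the 29 were higher in MC38 mice and 9 lower. Over all 13200 genes tested, 5289 were higher by sign and 7898 lower. Of the 29 genes 5 were higher and 5 lower in MC38 than in LLC mice, with 14.4% of all genes tested higher and 14% lower, and a median of 0.096 against -0.07 over all genes. The higher genes were Acat2, Hmgcs1, Fdft1, Lss and Srebf1, and the lower ones Mvd, Lbr, Ebp, Npc1 and Npc2. With MC38 library 4 alone, which is then assumed to vary like the other groups, none of the 29 was called. In that fit 6 genes (0.0435%) were higher and 16 (0.116%) lower over all genes, Acat2 stood at -0.10 and Mvd at 0.017.

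Set against spleen, the monocytes of the tumors moved apart. In TuMon2, 20 of the 29 genes were higher and 6 lower than in LLC spleen monocytes, with 28.6% of all genes tested higher and 34% lower. The median was 0.76, against -0.054 over all genes. Hsd17b7 (2.76 ± 0.21, edgeR adjusted p = 3.65e-11), Insig1 (1.88 ± 0.12, edgeR adjusted p = 2.58e-12) and Sqle (1.84 ± 0.091, edgeR adjusted p = 9.25e-15) had the largest rises. The lower genes were Mvd, Tm7sf2, Lbr, Ebp, Dhcr7 and Scap, and the call of Tm7sf2 (-0.47 ± 0.20, edgeR adjusted p = 0.048) was close to the threshold. In TuMon1, 6 were higher and 16 lower than in MC38 spleen monocytes, with 33.5% of all genes tested higher and 36.6% lower, and the median was -0.47 against -0.044. Npc2 (1.38), Insig1 (1.03), Pmvk, Mylip, Npc1 and Ebp were higher there, and Mvd (-1.49), Acat2 (-1.23) and Lbr (-1.21) had the largest falls. With spleen library 4 alone, 5 of the 29 were higher and 12 lower, where 27.4% of all genes tested were higher and 25.8% lower. The calls of Acat2 (-0.17), Lss (-0.23), Sc5d (-0.43), Srebf1 (0.058) and Ebp (0.11) were lost in that fit. The 5 neutrophil markers summed to 21.6 to 27.7 CPM in TuMon1 and 438 to 1879 CPM in MC38 spleen, and to 62.2 to 85.5 CPM in TuMon2 and 1478 to 2382 CPM in LLC spleen. Epithelial or tumor cell markers summed to 41.3 to 65.6 CPM in TuMon2 and 1.16 to 1.94 CPM in LLC spleen. For MC38 they were 5.60 to 7.83 CPM in TuMon1 and 0.529 to 21.2 CPM in spleen. The 8 macrophage genes were higher in both, at 4216 to 4408 CPM in TuMon2 against 1718 to 1885 CPM in LLC spleen. In TuMon1 they had 8310 to 9234 CPM, against 1721 to 2153 CPM in MC38 spleen. Of the 5 cell cycle genes 4 were higher in TuMon1 than in spleen (median 0.90), and 5 were lower in TuMon2 than in spleen (median -1.82). The order in MC38 mice depends on the spleen library. The sums were 95.5 to 114 CPM in TuMon1 and 47.8, 59.4 and 55.5 CPM in spleen libraries 1, 2 and 3. Spleen library 4, at 144 CPM, lay above TuMon1. The part of these markers was not tested.

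The difference between these differences was tested as an interaction. It was lower for MC38 in 19 of the 29 genes and higher in 3, with 19.1% of all genes tested lower and 23.8% higher, and its median was -0.84 against 0.042 over all genes. Sqle (-2.48 ± 0.13, edgeR adjusted p = 8.36e-13), Hsd17b7 (-2.34 ± 0.29, edgeR adjusted p = 9.04e-07) and Lss (-1.98 ± 0.21, edgeR adjusted p = 6.92e-08) led the lower genes. Mylip (1.07 ± 0.17, edgeR adjusted p = 2.12e-05), Npc2 (0.62 ± 0.11, edgeR adjusted p = 9.12e-05) and Ebp (0.53 ± 0.13, edgeR adjusted p = 0.0022) were the higher ones. With spleen library 4 alone, 16 of the 29 were lower and 2 higher, where 11.9% of all genes tested were lower and 14.2% higher. Sqle (-2.69), Hsd17b7 (-2.83), Stard4 (-2.23), Idi1 (-1.97) and Srebf2 (-1.62) were then farther apart. Lss (-1.50), Hmgcs1 (-1.49), Sc5d (-1.60), Fdft1 (-1.75), Srebf1 (-0.81) and Insig1 (-0.66) were closer but still called. Lbr was newly called (-0.71, edgeR adjusted p = 0.00237), and Acat2 (0.02), Pmvk (-0.26), Nsdhl (-0.23), Insig2 (-0.30) and Ebp (0.42) were no longer called.

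**Figure D4:**
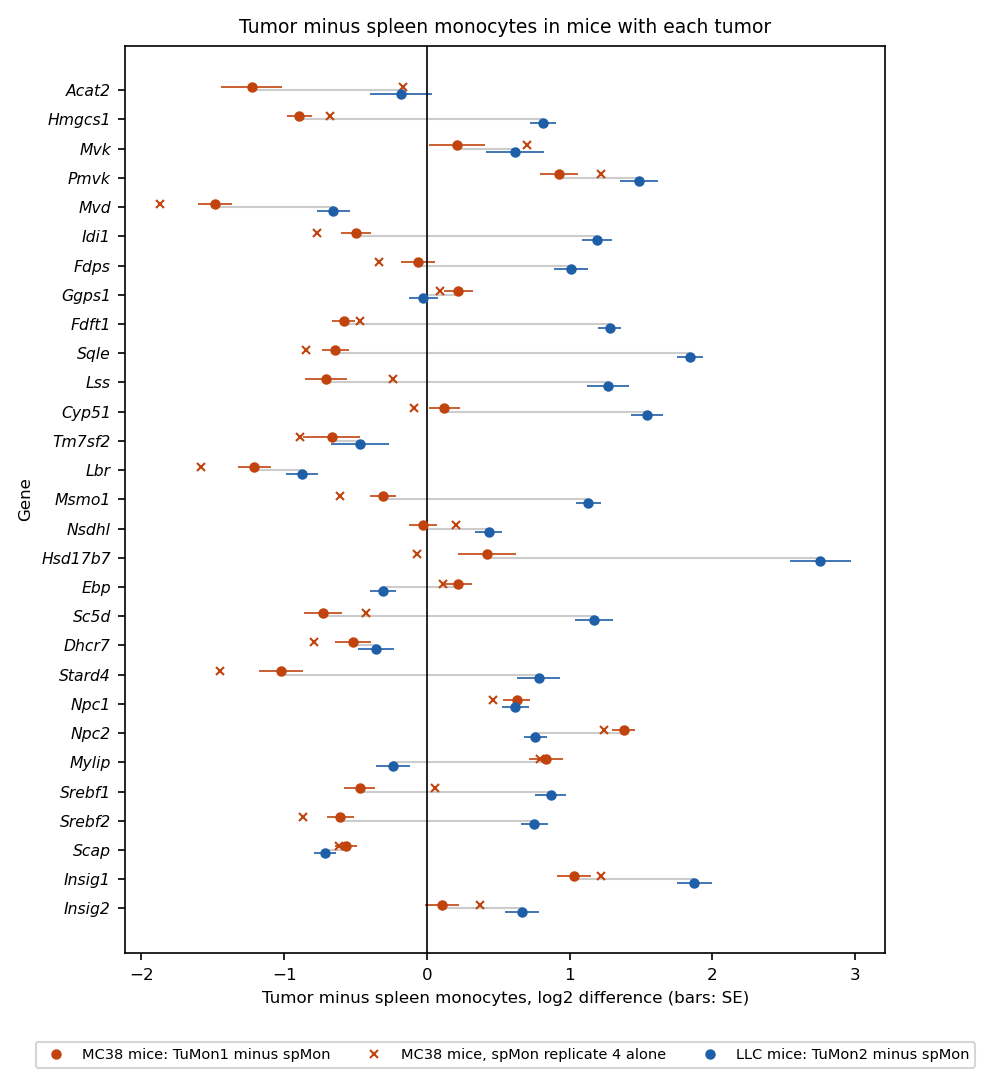
Tumor minus spleen monocytes, log2 difference with SE bars, for the 29 genes in pathway order, in MC38 mice (orange points; crosses use spleen library 4 alone) and LLC mice (blue points). For Hmgcs1, Idi1, Fdft1, Sqle, Lss, Msmo1, Sc5d, Stard4, Srebf1 and Srebf2 the MC38 point lies left and the LLC point right of 0. Sqle, for one, is at -0.64 in MC38 and 1.84 in LLC mice, and the cross of Srebf1 lies at 0.058. Fdps (-0.064 and 1.01) and Nsdhl (-0.029 and 0.43) lie likewise, but neither was called in MC38 mice.

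Macrophages were then set against the monocytes of the same tumor. In LLC tumors 20 of the 29 genes were lower and 4 higher in TuMac than in TuMon2, with 26.3% of all genes tested lower and 29.2% higher, and a median of -0.64 against 0.059 over all genes. Sc5d (-1.28 ± 0.13, edgeR adjusted p = 2.29e-08), Cyp51 (-1.19 ± 0.11, edgeR adjusted p = 3.09e-09) and Fdft1 (-1.18 ± 0.079, edgeR adjusted p = 1.65e-11) had the largest falls, and Tm7sf2, Dhcr7, Mylip and Scap were the higher genes. In MC38 tumors 9 were lower and 3 higher in TuMac than in TuMon1, with 27.9% of all genes lower and 24.8% higher, and a median of -0.038 against -0.015. Npc2 (-0.92), Pmvk (-0.82), Srebf2 (-0.64), Cyp51 (-0.64), Insig1 (-0.56), Srebf1, Fdft1, Mvd and Fdps were lower, and Dhcr7, Tm7sf2 and Scap higher. The change differed between tumors for 13 genes, of which 12 had the higher macrophage minus monocyte difference in MC38 tumors and 1, Mylip, the lower. Among all genes 6.25% were higher and 8.27% lower by that test. Hsd17b7 (1.34 ± 0.28, edgeR adjusted p = 0.00161), Stard4 (1.30 ± 0.22, edgeR adjusted p = 0.000197), Idi1 (1.04 ± 0.15, edgeR adjusted p = 2.73e-05) and Lbr (1.04 ± 0.16, edgeR adjusted p = 6.87e-05) had the largest such differences, and the others were Sc5d, Hmgcs1, Sqle, Fdft1, Msmo1, Fdps, Nsdhl and Cyp51. None of the 5 sensor genes was called in that test. The call of Fdps was lost without MC38 TuMac library 1 or TuMon1 library 2 (edgeR adjusted p = 0.056 and 0.051) and that of Mylip without TuMon2 library 2 or 4 (edgeR adjusted p = 0.0756 and 0.0782). Cell cycle genes were higher in macrophages of both tumors, 5 of 5 in MC38 (median 2.68) and 5 of 5 in LLC (median 2.59). In LLC tumors the 5 neutrophil markers summed to 2.58 to 8.72 CPM in TuMac and 62.2 to 85.5 CPM in TuMon2, the epithelial or tumor cell markers to 91.6 to 144 CPM in TuMac and 41.3 to 65.6 CPM in TuMon2, and the monocyte markers to 3262 to 3914 CPM in TuMac and 6637 to 6732 CPM in TuMon2. In MC38 tumors the monocyte markers summed to 1616 to 1935 CPM in TuMac and 7189 to 7966 CPM in TuMon1. Their part was not tested.

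In culture most of the pathway was above control with both supernatants, and LLC supernatant stood above MC38 supernatant. With MC38 supernatant 25 of the 29 genes were higher and 1, Lbr, lower than in control cells, where 35.4% of all 12603 genes tested were higher and 32.5% lower. The median was 1.06, against 0.054 over all genes, and Sqle (2.80 ± 0.069, edgeR adjusted p = 2.45e-10) and Lss (2.48 ± 0.12, edgeR adjusted p = 3.36e-08) rose the most. With LLC supernatant 26 were higher and 2, Lbr and Scap, lower, with 32.3% of all genes higher and 36.1% lower and a median of 2.02 against -0.069. Lss (4.18 ± 0.13, edgeR adjusted p = 1.07e-09), Sqle (4.01 ± 0.071, edgeR adjusted p = 4.09e-11) and Hsd17b7 (3.43 ± 0.16, edgeR adjusted p = 2.11e-08) rose the most. Compared directly, MC38 supernatant was lower than LLC supernatant for 22 genes and higher for 2, Npc2 and Ggps1, with 18.5% of all genes lower and 21.6% higher, and a median of -0.96 against 0.051. Stard4 (-1.90 ± 0.086, edgeR adjusted p = 1.71e-07), Lss and Mvd had the largest falls. Npc1 (-0.23 ± 0.074, edgeR adjusted p = 0.0312) had a call that was lost without control library 3, MC38 supernatant library 1 or 3 or any of the 3 LLC supernatant libraries (edgeR adjusted p from 0.0584 to 0.0986), and Insig2, Lbr, Ebp, Mylip and Scap were not called. Monocyte markers moved with the supernatants, as 6 of them summed to 4293 to 5110.0 CPM with MC38 supernatant, 2029 to 2093 CPM with LLC supernatant and 4698 to 5824 CPM in controls. The 8 macrophage genes summed to 7270.0 to 8256 CPM with MC38 supernatant, 9363 to 9540.0 CPM with LLC supernatant and 655 to 800.5 CPM in controls. The 5 neutrophil markers summed to 1414 to 1697 CPM with MC38 supernatant, 1695 to 1751 CPM with LLC supernatant and 448 to 596 CPM in controls. Their part was not tested.

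The tumor monocytes and the supernatant cultures share no library, and the MC38 minus LLC differences of each gene can be set side by side. Of the 29 genes, 17 were lower for MC38 in both, Npc2 was higher in both, and none was called in opposite directions. Of all genes tested in both fits, 7.44% were lower in both, 9.78% higher in both and 7.14% called in opposite directions. Acat2, Mvk, Pmvk, Tm7sf2 and Dhcr7 were lower in culture without a call in the tumors, and Lbr and Insig2 lower in the tumors without a call in culture. Mylip and Scap were higher in the tumors, Ggps1 was higher in culture, and Ebp was called in neither. Dhcr7 and Tm7sf2, for instance, differed by -0.17 and -0.10 between tumor monocytes but by -1.12 and -1.38 between supernatants. Whether such gaps between tumor and culture exceed error was not tested, since the libraries were scaled and fitted apart.

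**Figure D5:**
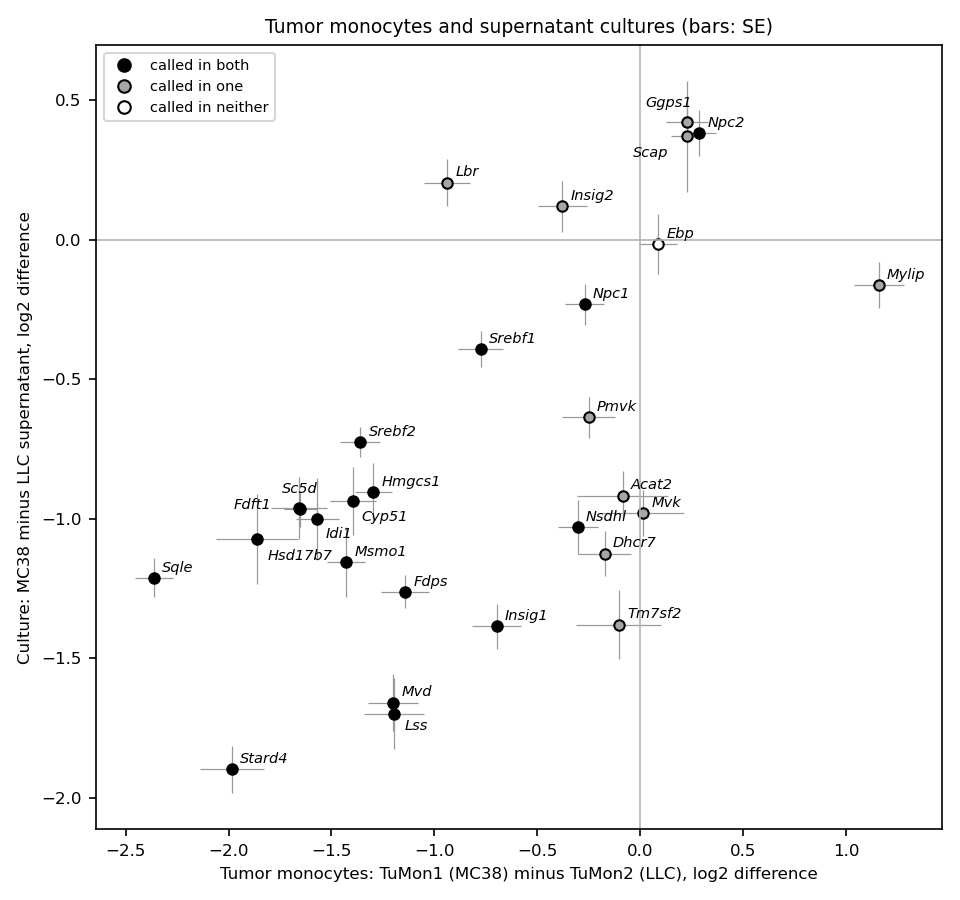
MC38 minus LLC log2 difference of the 29 genes in tumor monocytes (horizontal, TuMon1 minus TuMon2) and in culture (vertical, MC38 minus LLC supernatant), with SE bars, filled black where called in both, grey in one and white in neither. Most genes lie in the lower left part, from Srebf1 (-0.78 and -0.39) to Stard4 (-1.98 and -1.90), and Mylip lies alone at the right.

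By mean level, TuMon2 was the highest of the 6 mouse groups for 18 of the 29 genes, and MC38 TuMac (9 genes) and TuMon1 (7 genes) were most often the lowest. In culture LLC supernatant was highest for 23 genes and control lowest for 25. This order was not counted over all genes, so these counts have no share to be read against. The ratio of the highest to the lowest group mean was widest for Hsd17b7 among mouse groups (6.73) and for Lss in culture (18.1), and narrowest for Ggps1 among mouse groups (1.21) and for Ebp in culture (1.13). For Sqle, TuMon1 (11.8 ± 1.09 CPM, mean ± SD) and MC38 TuMac (11.9 ± 1.18 CPM) shared the low end within their spread, followed by LLC spleen (16.9 ± 1.70 CPM) and MC38 spleen (18.4 ± 1.91 CPM), which overlapped, then LLC TuMac (35.1 ± 1.95 CPM) and TuMon2 (60.7 ± 2.09 CPM), each apart from its neighbours. For Srebf2 the order ran from MC38 TuMac (75.1 ± 8.24 CPM) over TuMon1 (117 ± 14.6 CPM) to LLC TuMac (157 ± 9.13 CPM), the spleen groups (179 ± 26.5 CPM for MC38 and 179 ± 5.85 CPM for LLC) and TuMon2 (302 ± 10.3 CPM). LLC TuMac and MC38 spleen overlapped in that order, as did the spleen groups.

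Genes around the pathway were counted in lists drawn up by function. The shares over all genes are those given above for each comparison, 22.1% lower and 26.8% higher between tumor monocytes, 18.5% lower and 21.6% higher between supernatants, and 14.4% higher between spleen groups. Fatty acid synthesis, which Srebf1 governs, had 5 of 12 genes lower and 1 higher in TuMon1 than in TuMon2 (median -0.44). The desaturase gene Scd2 had the largest fall (-2.22 ± 0.096, edgeR adjusted p = 9.49e-15). It was followed by the elongase gene Elovl6 (-1.34 ± 0.15, edgeR adjusted p = 8.1e-08). Acss2, which makes acetyl-CoA from acetate, came next (-1.06 ± 0.16, edgeR adjusted p = 7.01e-06), and Acaca and Acly were lower as well. Me1, the malic enzyme that supplies NADPH, was higher (2.78 ± 1.12, edgeR adjusted p = 0.0477). That call was close to the threshold with a wide SE, and its dependence on single libraries was not tested. Between supernatants 9 of the 12 were lower with MC38 and none higher (median -0.65), among them Acss2 (-2.40 ± 0.35, edgeR adjusted p = 0.000627), Scd1 (-2.08 ± 0.59, edgeR adjusted p = 0.0238) and Scd2 (-2.04 ± 0.14, edgeR adjusted p = 2.17e-06). In spleen the list followed the fat cell transcripts, with 9 of 12 higher in MC38 mice and summed levels of 6113, 4645, 7330.0 and 800.0 CPM in MC38 spleen libraries 1 to 4, against 734 to 824 CPM in LLC spleen libraries.

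The machinery that cleaves and degrades the sensor was nearly level between tumor monocytes, with 3 of 11 genes higher and 3 lower in TuMon1 and a median of -0.035, where 26.8% of all genes were higher and 22.1% lower. Its largest differences were those of the ubiquitin ligase genes Rnf145 (0.36 ± 0.083, edgeR adjusted p = 0.000921) and Rnf139 (0.32 ± 0.12, edgeR adjusted p = 0.0262), and the protease gene Mbtps1 was slightly lower (-0.23 ± 0.067, edgeR adjusted p = 0.00622). The prenyl branch, which uses the same early steps to modify proteins and to build ubiquinone and dolichol, had 3 of 11 higher and 4 lower (median -0.0074), led by the farnesyltransferase gene Fntb (0.84 ± 0.23, edgeR adjusted p = 0.00405). Sterol storage and transport had 4 of 12 higher and 5 lower (median -0.25). Its higher genes were Lipa and Nceh1, which hydrolyse cholesterol esters, and the carriers Stard3 and Stard5, and its lower ones were Scarb1, a lipoprotein receptor (-0.68 ± 0.087, edgeR adjusted p = 6.38e-07), the sterol transporters Gramd1a and Gramd1b, the exchanger Osbp and Soat1, which makes cholesterol esters. Between supernatants the counts, MC38 against LLC, were 4 higher and 1 lower of 11 for the machinery, 2 and 3 of 11 for the prenyl branch, and 1 and 6 of the 11 storage and transport genes tested, beside 21.6% of all genes higher and 18.5% lower.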

How the data were processed

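Libraries were made from 100 ng of total RNA with a stranded mRNA kit and 14 PCR cycles, per the labels' protocols. The authors deposited estimated counts per Entrez Gene ID, of which 14.5% are not whole; GRCm38 (mm10) and CASAVA 1.8.2 are named in the submitters' processing notes, while those of the aligner and counter are not given here. Of the 24475 gene IDs, 24375 matched a symbol, and the 100 others hold 1.43% of counts. Whole counts had been assumed when the tests were designed, so the estimated counts were rounded first, which moved a library's total by at most 0.000368%.

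Groups come from the sample titles, because the tumor field of some MC38 samples counts upward. Mouse (13200 genes tested) and culture libraries (12603 genes) were filtered by filterByExpr, TMM-scaled and fitted separately with edgeR 4.0.16 (quasi-likelihood test, Benjamini-Hochberg over all genes tested, threshold 0.05, R 4.3.3), each fit pooling its spread over all its groups. CPM use the scaled library sizes. The fits were also run on simulated data in which most genes were held equal between groups. Such data cannot show how the fits act where as many genes differ as here. DESeq2 1.42.0, other scalings and filters, a replicate block, fits of the compared groups alone and fits leaving out libraries were alternatives. Library totals of 13047772 to 26966644 estimated counts set the precision, and PCR copies without molecular identifiers are not independent molecules.

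Promoter windows came from RefSeq (GRCm38.p6). Values in every library are given for 24 genes set by the naming rule of the design, and ranges for Mvk, Ggps1, Tm7sf2, Dhcr7 and Npc1. The 29 genes and the lists were chosen with earlier results of these data known.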

Additional observations from a re-analysis of the deposited data

Results flagged for a closer look

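Among the 29 genes, 15 groups held 1 library far from the other 3, where chance alone flags about 1 in 20 groups and 203 were looked at. Control culture library 2, which held muscle, epithelial and fibroblast transcripts, stood apart for 5 genes. It was low for Ggps1 (15.6 CPM, the others 16.4 to 16.6 CPM), Lbr (451 CPM, the others 553 to 562 CPM), Ebp (45 CPM, the others 58.7 to 60.6 CPM) and Npc2 (716 CPM, the others 845 to 872 CPM), and high for Cyp51 (29.8 CPM, the others 21.1 to 21.9 CPM). Among MC38 TuMac, library 2 was low for Hmgcs1 (36.5 CPM, the others 43.6 to 44.7 CPM), library 1 high for Sqle (13.7 CPM, the others 11.2 to 11.5 CPM), and library 4 low for Dhcr7 (14.1 CPM, the others 15.5 to 15.6 CPM) and Srebf1 (47.9 CPM, the others 57.1 to 57.5 CPM). MC38 TuMac library 4 also had the highest fat cell marker sum of its group (96.7 CPM). LLC TuMac library 4 was low for Stard4 (12 CPM, the others 14.5 to 14.8 CPM). TuMon1 library 2 was low for Stard4 (5.88 CPM, the others 8.37 to 8.83 CPM), and TuMon2 library 1 for Mvd (22.6 CPM, the others 24.7 to 25.1 CPM). In spleen, MC38 library 4, the one without fat cell transcripts, was high for Mvd (38.6 CPM, the others 26.1 to 27.8 CPM), LLC library 1 low for Acat2 (7.88 CPM, the others 10 to 10.1 CPM) and LLC library 4 low for Lss (5.14 CPM, the others 7.11 to 7.5 CPM).

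The tumor minus spleen difference of monocytes was also compared between MC38 and LLC mice. It differed for 22 of the 29 genes (edgeR interaction test, adjusted p under 0.05), where 19.1% of all genes were lower and 23.8% higher. As log2 values, MC38 minus LLC, it was lower for Acat2 (-1.04), Hmgcs1 (-1.71), Pmvk (-0.563), Mvd (-0.83), Idi1 (-1.69), Fdps (-1.08), Fdft1 (-1.86), Sqle (-2.48), Lss (-1.98), Cyp51 (-1.42), Msmo1 (-1.44), Nsdhl (-0.461), Hsd17b7 (-2.34), Sc5d (-1.9), Stard4 (-1.81), Srebf1 (-1.34), Srebf2 (-1.36), Insig1 (-0.845) and Insig2 (-0.56). It was higher for Ebp (0.528), Npc2 (0.62) and Mylip (1.07). The macrophage minus monocyte difference differed between tumors for 13 genes by the same test, where 6.25% of all genes were higher and 8.27% lower. On the same scale it was higher for Hmgcs1 (0.824), Idi1 (1.04), Fdps (0.58), Fdft1 (0.743), Sqle (0.801), Cyp51 (0.555), Lbr (1.04), Msmo1 (0.704), Nsdhl (0.574), Hsd17b7 (1.34), Sc5d (0.998) and Stard4 (1.3), and lower for Mylip (-0.599).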

How the results depend on the processing

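Over all settings, 9918 log2 differences of the 29 genes were recomputed, of which 9465 kept direction and side of the threshold, 163 lost a call, 84 gained one, 202 changed sign without a call under either setting, and 4 changed sign with a call under at least 1. The count of genes called between spleen groups, 10 with all libraries, was 3 in a fit of those groups alone and 0 without the libraries with foreign transcripts (MC38 spleen 1, 2 and 3, MC38 supernatant 3 and control 2). The 4 reversals arose in that last setting. They were Acat2 at -0.103 and Mvd at 0.0168 between spleen groups, Srebf1 at 0.0576 for TuMon1 minus spleen, and Acat2 at 0.0204 for the difference of tumor minus spleen between mice. These settings hold fewer samples, and the cause was not tested further. Leaving out 1 library at a time, the number of the 29 genes called was 20 to 22 for tumor monocytes (22 with all libraries), 17 to 20 for tumor macrophages (19), 7 to 13 for spleen (10), 21 to 24 for TuMon1 against spleen (22), 24 to 26 for TuMon2 against spleen (26), 10 to 13 for macrophages against monocytes in MC38 tumors (12), 22 to 25 in LLC tumors (24) and 23 to 25 between supernatants (24). Correlations of same-numbered deviations ran from -0.363 to 0.273, both extremes between control and MC38 supernatant cultures. They cannot show whether same-numbered samples came from 1 animal or culture, which the labels leave unsaid. With the replicate block the counts were 23 for tumor monocytes, 19 for tumor macrophages, 11 for spleen and 24 between supernatants. Upper quartile scaling moved the median of all genes for LLC macrophages minus monocytes to 0.205 (0.0589 with TMM) and for TuMon1 minus spleen to -0.181 (-0.0439), and for MC38 macrophages minus monocytes it called 5 of the 29 higher and 7 lower (3 and 9 with TMM). Over all genes the spleen comparison had 1903 higher and 1852 lower genes, and 2176 higher and 1083 lower with upper quartile scaling. That scaling gave 4110 higher and 2960 lower for MC38 macrophages minus monocytes (3274 and 3680 with TMM), and 5053 higher and 2590 lower for LLC (3859 and 3471). Genes at a few CPM, such as Tm7sf2 and Hsd17b7, are limited by depth.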
